A study of Mus musculus with 8 samples.

Results

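Dexamethasone is a synthetic glucocorticoid that crosses the placenta. The comparison described here asks how the RNA of the adult male hippocampus differed, at week 8, between the offspring of dexamethasone-injected and of saline-injected dams. It rests on 4 of the 8 libraries of the series: 2 from the group labelled IUGR (intrauterine growth retardation) and 2 from the group labelled NS (normal saline), taken by their treatment and age labels. The other 4 libraries are the same groups at postnatal day 3 and enter only where the ages are compared. All animals were labelled wildtype C57BL/6J males. Dams were allocated at random, and IUGR dams received 1 mg/kg/d dexamethasone intraperitoneally for 5 days from 14.5 dpc, while NS dams received the same volume of saline. The labels name no treatment after birth, and the sources used here do not give birth weight, litter, the number of dams or the number of animals behind a library. The libraries carry a replicate number, 1 or 2, and are called NS 1, NS 2, IUGR 1 and IUGR 2 below. Nothing in the labels says that replicates came from separate animals, so p-values measure only the spread between these libraries.

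Glucocorticoids act through the glucocorticoid receptor (Nr3c1) and the mineralocorticoid receptor (Nr3c2), ligand-activated transcription factors that are both abundant in the hippocampus. Brain capillaries are built of endothelial cells joined by tight junctions, of pericytes and smooth muscle (together mural cells), and of a basement membrane of laminin, collagen IV, nidogen and perlecan that these cells share with astrocyte endfeet. The meninges and the choroid plexus, which secretes cerebrospinal fluid, lie against the hippocampus.

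RNA depleted of ribosomal RNA was sequenced, and reads per gene were deposited as raw counts. The 4 libraries held between 13030277 and 18993050 counts, so that 3 counts, the most that a count of 0 allows, equal 0.158 to 0.23 CPM, the unit in which counts are scaled to the library total. Markers of hippocampal neurons were present in every library: Prox1, a transcription factor of dentate granule cells, had 46.1 CPM in NS 1, 66.1 in NS 2, 34.1 in IUGR 1 and 66.6 in IUGR 2. The libraries split first by replicate number and only then by treatment. The difference between numbers had an SD over genes of 1.002 in NS and 0.903 in IUGR on the log2(CPM + 1) scale, while the difference between IUGR and NS had an SD of 0.353 within number 1 and 0.376 within number 2. Across genes, the number difference in NS and that in IUGR correlated at 0.861, a description over 15143 genes of the same 4 libraries. Rpph1, the RNA of RNase P, made up 7.692% of the counts in NS 1 and 6.49% in IUGR 1 but had 0 counts in NS 2 and 2 in IUGR 2. Treatment was therefore tested with the number as a block, which leaves 1 residual degree of freedom, and the difference within each number is given beside the fit.

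No gene passed an adjusted p of 0.05 in edgeR's quasi-likelihood test (0 of 15143 genes, 0%). The smallest adjusted p was 0.3004. At an unadjusted p under 0.05 there were 603 genes. Of these, 476 were lower in IUGR (3.14% of genes tested) and 127 were higher (0.839%). Within the numbers, 4608 genes (30.4%) were lower in IUGR in both and 2605 (17.2%) were higher in both. By at least 1.5-fold in both numbers, on the log2(CPM + 1) scale, 182 genes (1.2%) were lower and 12 (0.0792%) higher. Both IUGR libraries lay below both NS libraries for 1313 genes (8.67%) and above them for 595 (3.93%). The statements on single genes below are values beside these shares, not calls.

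Genes of the vessel wall were mostly lower in IUGR within both numbers, by similar amounts. The gene lists used here were chosen with earlier results of these data known, so their counts are a description. Of 30 genes in a list of endothelial and mural cell markers, 29 were tested and 26 were lower in IUGR in both numbers (background 30.4%), 13 of them by at least 1.5-fold in both (background 1.2%). An unadjusted p under 0.05 was reached by 20, all lower (background 3.14%), and none by a higher gene. The choroid plexus and meningeal lists described below had similar counts. For 18 of the 29, both IUGR libraries lay below both NS libraries (background 8.67%). The median log2 fold change of the list was -0.82, against 0.02 over all genes tested, and its median difference was -0.79 within number 1 and -0.73 within number 2. The summed level of the list was 641.8 CPM in NS 1 and 588.2 in NS 2, and 369.9 in IUGR 1 and 421.7 in IUGR 2, so both IUGR libraries were below both NS libraries. In bulk tissue, fewer cells of a type and less RNA per cell cannot be told apart. No member passed the adjusted threshold in the main fit. In edgeR fits that differ in a single choice, 4 members passed with RLE scaling, 11 with upper-quartile scaling and 11 with no count filter, all lower, and 0 passed with DESeq2, limma voom or all 8 libraries.

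**Figure D1:**
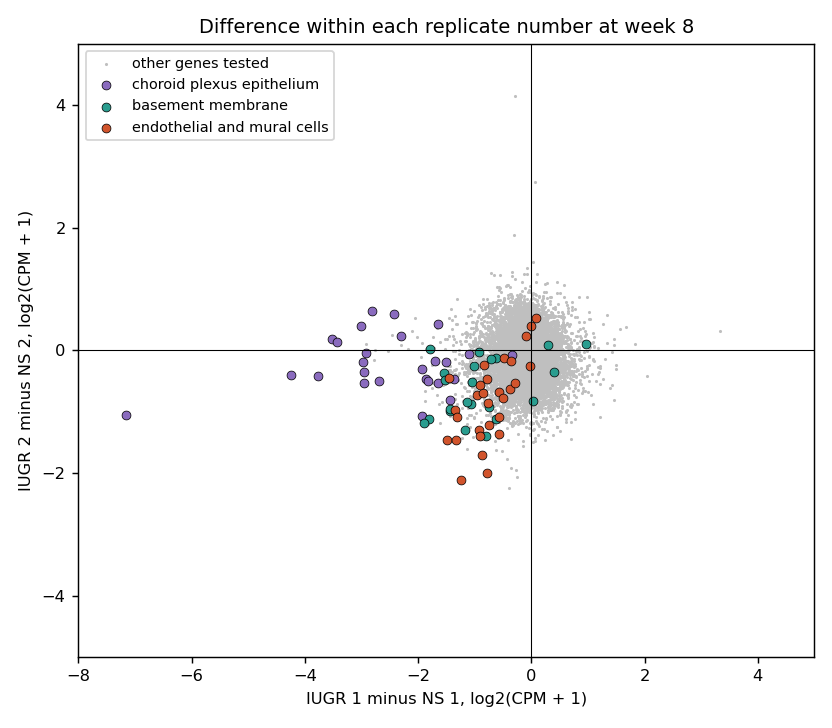
Each point is a gene: the x axis is its difference IUGR 1 minus NS 1 and the y axis IUGR 2 minus NS 2, both in log2(CPM + 1), with grey for all other genes tested and colours for 3 gene lists. Endothelial and mural genes lie mostly in the lower left quadrant (26 of 29 lower in both numbers), while choroid plexus genes lie far to the left and near 0 on the y axis (medians -2.36 and -0.24).

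Among endothelial genes, the clotting factor carrier Vwf (von Willebrand factor, chr6:125546774-125686679, GRCm38) had 27.2 CPM in NS 1, 9.69 in NS 2, 10.1 in IUGR 1 and 2.88 in IUGR 2. IUGR was below NS within each number, although IUGR 1 and NS 2 overlap because number 2 is lower for this gene in both groups. Its log2 fold change in the blocked fit was -1.50 ± 0.25 (SE; unadjusted p = 0.000149, adjusted p = 0.3 by edgeR). Tie1, an endothelial receptor tyrosine kinase of the angiopoietin system (chr4:118471191-118490061), had 5.83 CPM in NS 1, 7.79 in NS 2, 1.42 in IUGR 1 and 2.19 in IUGR 2, with both IUGR libraries far below both NS libraries and a log2 fold change of -1.86 ± 0.34 (adjusted p = 0.349). Flt1, a receptor of vascular endothelial growth factor, had 18.9 CPM in NS 1, 20.3 in NS 2, 9.80 in IUGR 1 and 5.49 in IUGR 2, and the groups did not overlap. Kdr, the other main receptor of that factor, had 13.6 CPM in NS 1, 10.95 in NS 2, 7.03 in IUGR 1 and 6.38 in IUGR 2, a smaller difference (-0.80 ± 0.25) that also left the groups apart.

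Junction and transporter genes of the barrier gave a mixed picture. Cldn5, the main claudin of the brain endothelial tight junction, had 21.5 CPM in NS 1, 20.9 in NS 2, 12.04 in IUGR 1 and 4.46 in IUGR 2. The difference was -0.79 within number 1 and -2.002 within number 2, and the groups did not overlap. Cdh5, the cadherin of endothelial adherens junctions, had 14.3 CPM in NS 1, 7.11 in NS 2, 5.004 in IUGR 1 and 3.15 in IUGR 2, and Pecam1, an adhesion molecule of the same junctions, had 11.97 CPM in NS 1, 15.2 in NS 2, 5.68 in IUGR 1 and 8.78 in IUGR 2; in neither gene did the groups overlap. The organic anion transporter Slco1a4 had 36.99 CPM in NS 1, 22.4 in NS 2, 19.1 in IUGR 1 and 8.57 in IUGR 2 (-1.10 ± 0.22). Abcb1a, which encodes the drug efflux pump P-glycoprotein, had 30.2 CPM in NS 1, 13.7 in NS 2, 19.9 in IUGR 1 and 5.96 in IUGR 2, and there IUGR 1 was above NS 2. By contrast, Slc2a1, the glucose transporter of the barrier, had 47.04 CPM in NS 1, 77.4 in NS 2, 43.9 in IUGR 1 and 91.5 in IUGR 2, and Mfsd2a, which carries lysophospholipids across it, had 6.98 CPM in NS 1, 52.2 in NS 2, 6.96 in IUGR 1 and 69.4 in IUGR 2. These 2 and the pericyte channel subunit Kcnj8 were the 3 tested members with a positive log2 fold change, of 0.14 ± 0.19, 0.30 ± 0.22 and 0.48 ± 0.37. Slc2a1 and Mfsd2a were also higher in number 2 than in number 1 in either group.

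Smooth muscle and pericyte genes lay lower as well. Myh11, the smooth muscle myosin heavy chain, had 8.52 CPM in NS 1, 7.79 in NS 2, 3.04 in IUGR 1 and 1.03 in IUGR 2, the largest fold change of the list (-2.05 ± 0.40, adjusted p = 0.422 by edgeR). Acta2, smooth muscle actin, had 18.96 CPM in NS 1, 11.3 in NS 2, 9.67 in IUGR 1 and 3.70 in IUGR 2, and Tagln, an actin-binding protein of smooth muscle, had 13.4 CPM in NS 1, 8.90 in NS 2, 4.80 in IUGR 1 and 3.63 in IUGR 2. In all 3 genes both IUGR libraries were below both NS libraries. Pdgfrb, the receptor through which pericytes are recruited to capillaries, had 33.4 CPM in NS 1, 20.7 in NS 2, 17.4 in IUGR 1 and 13.7 in IUGR 2, a difference of -0.90 in number 1 and -0.56 in number 2. Cnn1, a calponin of smooth muscle, did not pass the filter on low counts, with 2.38 and 0.632 CPM in NS and 0.338 and 0.274 in IUGR.

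A few of these genes serve to show the sequence before the transcription start. Endothelial genes are known targets of ETS transcription factors, whose sites hold a GGAA core. The 3 endothelial and mural members shown are those with the smallest p that have a promoter in the RefSeq table (GRCm38.p6), hold AGGAAG or its reverse complement CTTCCT in the 250 bases before the start, have no annotated exon there, and start within 1000 bases of the gene's start in GENCODE. Capitals mark the matches, found on both strands.
Slco1a4 (chr6:141856221-141856470, strand -): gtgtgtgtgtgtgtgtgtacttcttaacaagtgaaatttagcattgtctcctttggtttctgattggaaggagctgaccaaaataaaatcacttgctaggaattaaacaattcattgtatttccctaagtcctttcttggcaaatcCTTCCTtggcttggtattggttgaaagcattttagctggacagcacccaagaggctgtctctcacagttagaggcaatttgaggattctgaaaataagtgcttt
Flt1 (chr5:147726012-147726261, strand -): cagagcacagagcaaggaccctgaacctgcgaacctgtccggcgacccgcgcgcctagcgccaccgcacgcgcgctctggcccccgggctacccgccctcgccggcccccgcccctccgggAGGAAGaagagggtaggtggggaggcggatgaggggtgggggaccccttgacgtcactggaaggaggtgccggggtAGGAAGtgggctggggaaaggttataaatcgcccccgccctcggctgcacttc
Eng (chr2:32646345-32646594, strand +): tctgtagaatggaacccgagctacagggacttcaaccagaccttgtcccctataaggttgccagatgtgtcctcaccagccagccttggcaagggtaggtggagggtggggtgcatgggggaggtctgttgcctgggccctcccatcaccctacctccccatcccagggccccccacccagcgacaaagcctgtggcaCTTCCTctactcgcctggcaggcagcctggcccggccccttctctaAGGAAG
Eng encodes endoglin, an endothelial co-receptor for TGF-beta family ligands, and had 5.602 CPM in NS 1, 17.9 in NS 2, 2.91 in IUGR 1 and 9.46 in IUGR 2, lower in IUGR within both numbers, by -0.76 and -0.85. Of the 20 tested list members with a promoter in that table, 7 (35.0%) hold the 6 letters in these 250 bases, against 3151 of 11388 promoters of all genes tested (27.7%). Over all 27025 genes of the table the share was 29.2%. These are matches of letters in a short window and say nothing of binding.

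Basement membrane genes lay lower in IUGR too. This family list (laminins, nidogens, collagen IV, perlecan, agrin, collagens XV and XVIII) was chosen after the leading genes had been seen, so its counts are a description. Of 22 tested genes, 17 were lower in both numbers (background 30.4%) and 10 by at least 1.5-fold in both (background 1.2%), with medians of -1.03 within number 1 and -0.67 within number 2. Hspg2, which encodes perlecan (chr4:137468769-137570630), had 34.1 CPM in NS 1, 12.6 in NS 2, 8.99 in IUGR 1 and 5.28 in IUGR 2. Both IUGR libraries were below both NS libraries, by -1.81 within number 1 and -1.11 within number 2 on the log2(CPM + 1) scale, and the fitted log2 fold change was -1.54 ± 0.25 (adjusted p = 0.3). Col18a1, whose collagen XVIII carries the endostatin fragment (chr10:77052178-77166548), had 15.7 CPM in NS 1, 6.58 in NS 2, 3.52 in IUGR 1 and 2.33 in IUGR 2, with no overlap. The nidogen gene Nid1, which links laminin to collagen IV, had 30.5 CPM in NS 1, 7.42 in NS 2, 10.6 in IUGR 1 and 3.36 in IUGR 2, and there IUGR 1 was above NS 2.

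The chains of the collagen IV network of all vessels were closer to the average of the list. Col4a1 had 37.6 CPM in NS 1, 77.7 in NS 2, 21.98 in IUGR 1 and 40.4 in IUGR 2 and Col4a2 had 30.3 CPM in NS 1, 101 in NS 2, 19.3 in IUGR 1 and 46.3 in IUGR 2, with log2 fold changes of -0.80 ± 0.20 and -0.84 ± 0.21. In these genes number 2 was the higher number in either group, the opposite of Hspg2 and Nid1, and IUGR was lower within both numbers all the same. The laminin chains Lamb2, Lamc3 and Lama5 were lower in IUGR within both numbers. Lamb2 had 66.5 CPM in NS 1, 31.3 in NS 2, 31.4 in IUGR 1 and 16.6 in IUGR 2, Lamc3 had 26.9 CPM in NS 1, 7.27 in NS 2, 9.33 in IUGR 1 and 3.15 in IUGR 2 and Lama5, found in mature vessels, had 11.7 CPM in NS 1, 16.5 in NS 2, 6.29 in IUGR 1 and 5.69 in IUGR 2.

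**Figure D2:**
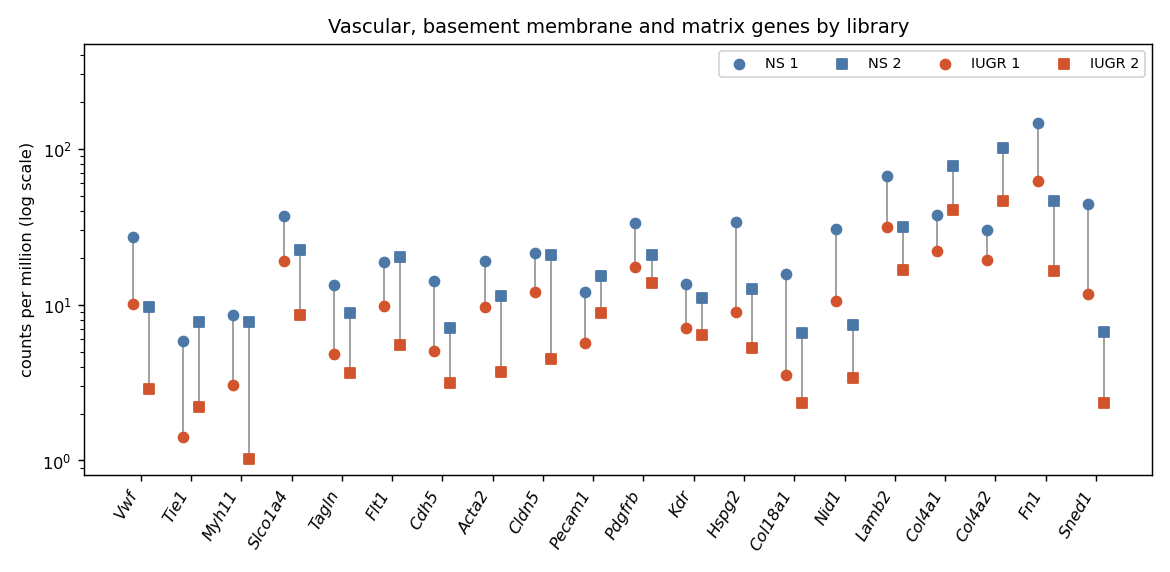
CPM on a log scale of 20 vascular, basement membrane and matrix genes in each week 8 library, with blue for NS, red for IUGR, circles for number 1, squares for number 2 and a line joining the libraries of a number. The genes were partly chosen after their values were seen. Slc2a1, Mfsd2a and Kcnj8, the 3 tested endothelial and mural genes with a positive log2 fold change, are not plotted. In every gene plotted the IUGR point lies below the NS point of its number, from Vwf (27.2 against 10.1 and 9.69 against 2.88) to Sned1 (44.1 against 11.8 and 6.63 against 2.33).

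The smallest p-values at week 8 belonged to matrix genes. Sned1, an extracellular matrix protein with a nidogen domain (chr1:93235841-93301065), had 44.1 CPM in NS 1, 6.63 in NS 2, 11.8 in IUGR 1 and 2.33 in IUGR 2 and a log2 fold change of -1.68 ± 0.24 (unadjusted p = 5.3e-05, adjusted p = 0.3). Fn1, fibronectin, made by endothelial cells and fibroblasts (chr1:71585520-71653200), had 147 CPM in NS 1, 45.9 in NS 2, 61.9 in IUGR 1 and 16.4 in IUGR 2 and a log2 fold change of -1.30 ± 0.19 (adjusted p = 0.3). In both genes NS 1 was the highest library and IUGR 2 the lowest, and IUGR 1 lay above NS 2. These were also the 2 genes called in the most alternative fits, 5 of 11. The long non-coding RNA Neat1, the scaffold of nuclear paraspeckles (chr19:5824708-5845478), had 113 CPM in NS 1, 70.1 in NS 2, 53.02 in IUGR 1 and 28.8 in IUGR 2 (-1.12 ± 0.19, adjusted p = 0.3), without overlap.

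Other genes among the 15 with the smallest p on the lower side were Dock6, a guanine nucleotide exchange factor, with 23.9 CPM in NS 1, 23.4 in NS 2, 7.10 in IUGR 1 and 9.73 in IUGR 2, and the endothelial phosphatase gene Ptprb, with 30.2 CPM in NS 1, 28.96 in NS 2, 14.3 in IUGR 1 and 10.3 in IUGR 2. Adamts10, a metalloprotease that acts on fibrillin microfibrils, had 19.8 CPM in NS 1, 28.6 in NS 2, 8.45 in IUGR 1 and 11.9 in IUGR 2. The IUGR and NS libraries did not overlap in these 3. Uaca had 27.2 CPM in NS 1, 6.58 in NS 2, 9.47 in IUGR 1 and 2.60 in IUGR 2, and its IUGR 1 library was above NS 2. The log2 fold changes of the 4 ran from -1.44 in Dock6 to -1.18 in Adamts10, and none passed the adjusted threshold.

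Markers of the meninges and of the choroid plexus were unevenly present, and they were high in NS 1. The 30 meningeal and fibroblast markers summed to 3425.8 CPM in NS 1, 931.6 in NS 2, 1695.3 in IUGR 1 and 961.7 in IUGR 2, so that the sum was lower in IUGR in number 1 and not in number 2. Without Ptgds, the most abundant of them, the other 29 genes summed to 1573.8 CPM in NS 1, 521.9 in NS 2, 794.5 in IUGR 1 and 396.9 in IUGR 2, lower in IUGR in both numbers. Of these 30 genes, 18 were lower in both numbers (background 30.4%), with a median of -1.08 in number 1 and -0.35 in number 2. An unadjusted p under 0.05 by edgeR was reached by 18 of the 30, all lower (background 3.14%). Col1a1, a chain of the fibrillar collagen of meningeal fibroblasts, had 47.7 CPM in NS 1, 7.11 in NS 2, 24.9 in IUGR 1 and 4.73 in IUGR 2. Slc6a20a, a proline transporter, had 72.5 CPM in NS 1, 12.3 in NS 2, 19.1 in IUGR 1 and 7.40 in IUGR 2, and Foxc1, a transcription factor of meningeal and mural cells, had 15.96 CPM in NS 1, 6.69 in NS 2, 6.29 in IUGR 1 and 3.02 in IUGR 2. Igf2 had 182 CPM in NS 1, 45.6 in NS 2, 62.3 in IUGR 1 and 46.1 in IUGR 2 and Ptgds, the prostaglandin D synthase of the arachnoid, 1852 CPM in NS 1, 409.7 in NS 2, 901 in IUGR 1 and 565 in IUGR 2, that is, lower in IUGR in number 1 and about equal or higher in number 2.

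The 26 tested choroid plexus markers were all lower in the blocked fit (median -1.48), and 19 were lower in both numbers (background 30.4%), but the size of the difference rests on a single library. An unadjusted p under 0.05 by edgeR was reached by 20 of the 26, all lower (background 3.14%). Their summed level was 9245.9 CPM in NS 1, 340.1 in NS 2, 450.4 in IUGR 1 and 300.7 in IUGR 2. Ttr, transthyretin, the most abundant choroid plexus transcript, had 6464 CPM in NS 1, 47.4 in NS 2, 44.2 in IUGR 1 and 22.2 in IUGR 2. Kcne2, a potassium channel subunit of this epithelium (chr16:92292389-92298129), had 28.3 CPM in NS 1, 0.684 in NS 2, 0.541 in IUGR 1 and 0.274 in IUGR 2, and its log2 fold change of -4.69 ± 0.74 (adjusted p = 0.3) came almost whole from number 1 (-4.25 against -0.40). The bicarbonate transporter gene Slc4a5 and the water channel gene Aqp1 had 13.1 and 21.9 CPM in NS 1 and at most 0.811 and 0.79 in the other 3 libraries. Ace, angiotensin-converting enzyme, which endothelial cells express too, had 40.1 CPM in NS 1, 11.6 in NS 2, 14.2 in IUGR 1 and 6.17 in IUGR 2 and a difference in both numbers (-1.44 and -0.82).

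**Figure D3:**
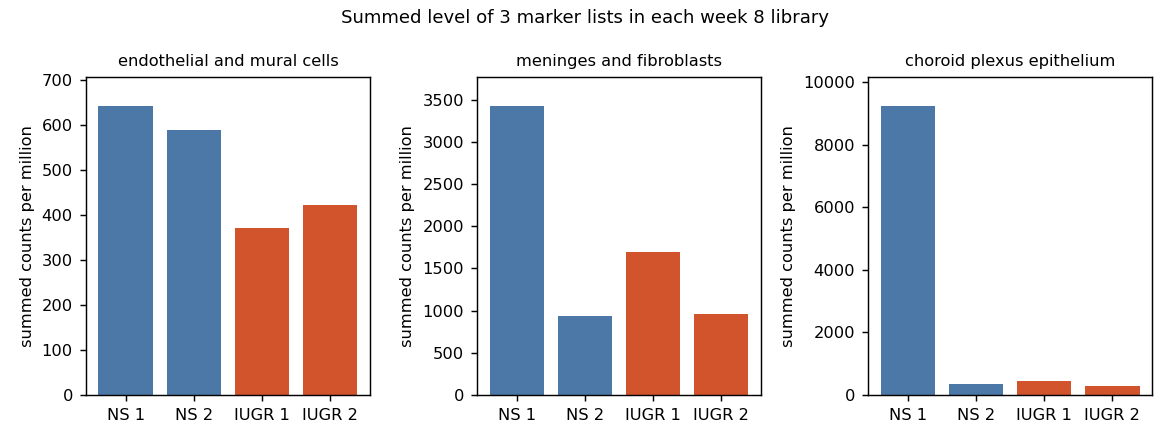
Bars give the summed CPM of all genes of a marker list in each week 8 library (blue NS, red IUGR), each panel on its own scale from 0. The endothelial and mural sum is lower in both IUGR libraries (369.9 and 421.7 against 641.8 and 588.2), the meningeal sum is high in NS 1 and IUGR 1 (3425.8 and 1695.3), and the choroid plexus sum is high only in NS 1 (9245.9).

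The lists can also be described without that library. Leaving out both libraries of a number leaves only the difference within the other number. The medians that follow therefore restate the within-number values and are no separate check. With both libraries of number 1 left out, the endothelial and mural median was -0.74 and 26 of 29 genes were lower, and with both of number 2 left out it was -0.77 and 26 were lower. The corresponding medians of the choroid plexus list were -0.33 and -2.80, and those of the meningeal list -0.40 and -1.09. The basement membrane median was -0.67 without number 1 and -0.999 without number 2. Several basement membrane and endothelial genes are also made by meningeal cells. The meningeal markers lay lower in IUGR as well, more in number 1 (median -1.08) than in number 2 (median -0.35). The part of that in the vessel result was not tested.

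Base composition went with the treatment difference in opposite ways in the 2 numbers. Across 6 equal bins of transcript GC content (2316 genes each, with a mean of at least 1 CPM), the median difference went from -0.11 in the lowest bin to 0.01 in the highest within number 1, and from 0.20 to -0.29 within number 2. Endothelial and mural genes had a median GC content of 52.5%, against 49.7% over all 13896 genes with a value. Taken relative to the median of genes in the same GC bin, their median difference was -0.77 within number 1 and -0.63 within number 2. The basement membrane list had -1.02 and -0.46 on that scale, and the meningeal list -1.08 and -0.14.

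**Figure D4:**
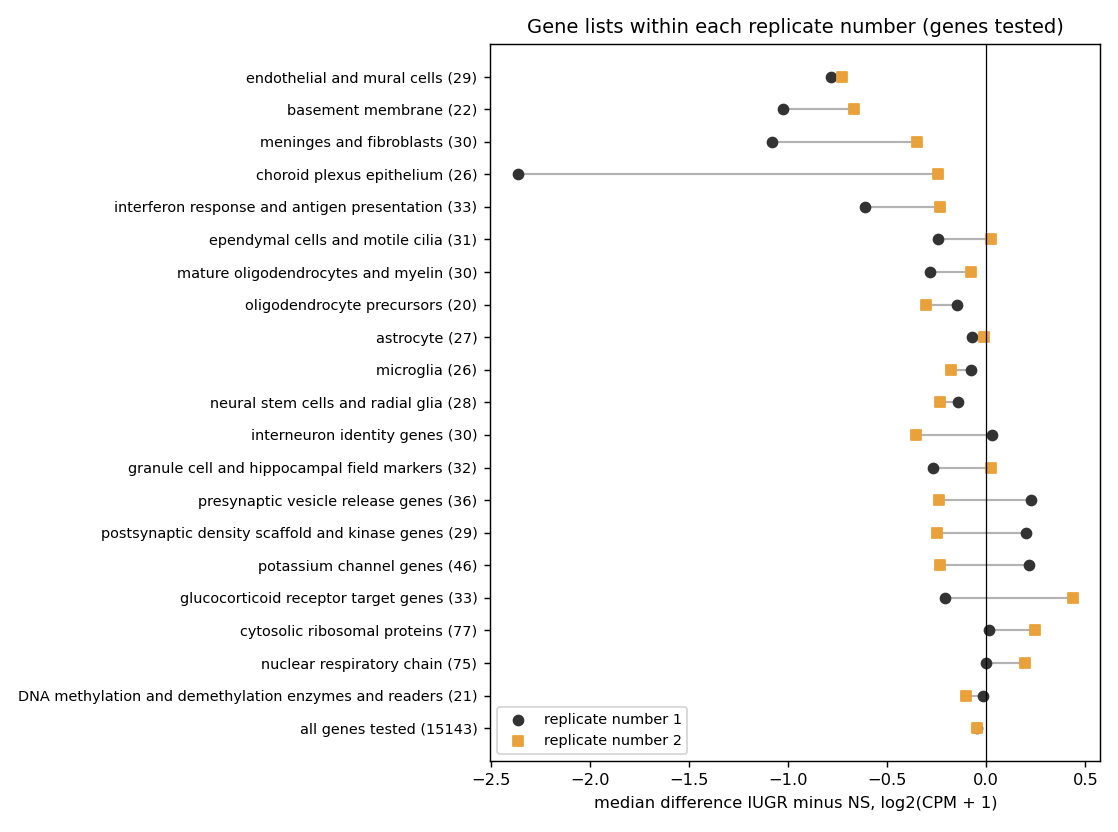
Median difference IUGR minus NS in log2(CPM + 1) of 20 gene lists and of all genes tested, within number 1 (black circles) and within number 2 (orange squares), with the number of genes tested in brackets. The endothelial and mural list has nearly the same median in both numbers (-0.79 and -0.73), whereas synaptic and glucocorticoid target lists lie on opposite sides of 0 (for example -0.21 and 0.44 for glucocorticoid targets).

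Targets of the glucocorticoid receptor differed in direction between the numbers. Of 33 tested genes that acute glucocorticoids are known to induce or repress, 24 were lower in IUGR within number 1 (median -0.21) and 4 within number 2 (median 0.44). Of all 15143 genes tested, 8821 were lower within number 1 and 8309 within number 2. In the blocked fit 26 of the 33 were higher (8089 of all genes tested), with a median of 0.19 against 0.02 over all genes. An unadjusted p under 0.05 by edgeR was reached by 3 higher and 1 lower target (background 0.839% and 3.14%). Fkbp5, which encodes the receptor's co-chaperone, had 38.6 CPM in NS 1, 109 in NS 2, 32.2 in IUGR 1 and 168 in IUGR 2, so that IUGR 2 was the highest library and IUGR 1 the lowest. Tsc22d3, or Gilz, had 96.6 CPM in NS 1, 103 in NS 2, 95.3 in IUGR 1 and 144 in IUGR 2 and the kinase gene Sgk1 55.4 CPM in NS 1, 108 in NS 2, 53.3 in IUGR 1 and 169 in IUGR 2. The cell cycle inhibitor gene Cdkn1a had 1.995 CPM in NS 1, 10.3 in NS 2, 1.42 in IUGR 1 and 40.6 in IUGR 2, a high level in IUGR 2 alone. Nfkbia, which encodes an inhibitor of NF-kappaB, had 14.7 CPM in NS 1, 18.1 in NS 2, 15.5 in IUGR 1 and 34.96 in IUGR 2 (0.59 ± 0.25, adjusted p = 0.999 by edgeR), and Tgm2, a transglutaminase that endothelial cells express, had 20.6 CPM in NS 1, 11.3 in NS 2, 10.9 in IUGR 1 and 7.13 in IUGR 2 (-0.73 ± 0.24, adjusted p = 0.999).

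Neither receptor gene passed the test. Nr3c1 had 181 CPM in NS 1, 72.4 in NS 2, 191 in IUGR 1 and 62.5 in IUGR 2 and a log2 fold change of -0.001 ± 0.19 (SE), a gene that split by number and not by group. Nr3c2 had 127 CPM in NS 1, 114 in NS 2, 84.3 in IUGR 1 and 107 in IUGR 2 (-0.27 ± 0.20), lower in IUGR within both numbers, by -0.59 and -0.08. Pomc, the precursor of corticotropin, was low in NS (0.691 and 0.737 CPM) and had 2.03 and 2.19 CPM in IUGR (1.62 ± 0.51, adjusted p = 0.996 by edgeR), a gene of few counts in all 4 libraries. The enzymes that oxidise 5-methylcytosine gave small differences too: Tet1 had 29.1 CPM in NS 1, 11.2 in NS 2, 27.05 in IUGR 1 and 11.4 in IUGR 2 (0.02 ± 0.21), Tet2 had 52.7 CPM in NS 1, 38.2 in NS 2, 45.6 in IUGR 1 and 30.6 in IUGR 2 (-0.20 ± 0.19) and Tet3 had 35.1 CPM in NS 1, 65.2 in NS 2, 37.2 in IUGR 1 and 52.9 in IUGR 2 (-0.05 ± 0.20). Of 21 tested genes of DNA methylation and demethylation, 0 had an unadjusted p under 0.05 by edgeR (background 3.14% lower and 0.839% higher). In both numbers 5 were lower and 2 higher (background 30.4% and 17.2%).

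On the higher side, the 15 genes with the smallest p were more diverse, and many owed their place to a single library. Rbm3, a cold-inducible RNA-binding protein of neurons, had 50.04 CPM in NS 1, 65.5 in NS 2, 76.8 in IUGR 1 and 114 in IUGR 2, with both IUGR libraries above both NS libraries and nearly equal differences (0.61 and 0.79; log2 fold change 0.77 ± 0.18, adjusted p = 0.601). Lamp5, a lysosomal membrane protein of a class of interneurons and of superficial cortical neurons, had 18.6 CPM in NS 1, 38.6 in NS 2, 38.8 in IUGR 1 and 55.5 in IUGR 2 (0.85 ± 0.22). Chac2, a glutathione-degrading enzyme, had 5.45 CPM in NS 1, 7.48 in NS 2, 9.60 in IUGR 1 and 12.8 in IUGR 2, Dusp14, a MAP kinase phosphatase, 13.4 CPM in NS 1, 19.2 in NS 2, 20.4 in IUGR 1 and 28.5 in IUGR 2, and Sstr2, a somatostatin receptor, 6.37 CPM in NS 1, 7.79 in NS 2, 14.1 in IUGR 1 and 11.6 in IUGR 2. In Rbm3, Lamp5, Chac2, Dusp14 and Sstr2 the IUGR libraries all lay above the NS libraries.

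In other genes of that set the difference came mainly from 1 number. Eef1a1, a translation elongation factor, had 3662 CPM in NS 1, 2182 in NS 2, 36960 in IUGR 1 and 2721 in IUGR 2 and made up 3.696% of the counts of IUGR 1, against 0.218 to 0.366% in the other 3 libraries. Mef2c, a transcription factor of excitatory neurons, had 119 CPM in NS 1, 89.6 in NS 2, 330.3 in IUGR 1 and 102 in IUGR 2, Ipcef1 53.3 CPM in NS 1, 15.7 in NS 2, 115 in IUGR 1 and 19.3 in IUGR 2 and the guidance factor gene Sema3a 11.8 CPM in NS 1, 2.79 in NS 2, 29.7 in IUGR 1 and 4.11 in IUGR 2, each highest in IUGR 1. The ribosomal protein gene Rpl36al had 114 CPM in NS 1, 42.1 in NS 2, 366 in IUGR 1 and 55.1 in IUGR 2. Eno1b had 0.307 CPM in NS 1, 13.2 in NS 2, 0.338 in IUGR 1 and 37.4 in IUGR 2, a difference in number 2 alone, and Il20rb had 1.30 CPM in NS 1, 2.58 in NS 2, 2.16 in IUGR 1 and 6.79 in IUGR 2. Arhgap25 had a difference of 1.34 in number 1 and 0.57 in number 2. The sodium channel gene Scn7a was an exception, with 0.66 and 0.64 (0.81 ± 0.26 in the fit). Eef1a1, Rpl36al and Eno1b have near-identical copies elsewhere in the genome, so that their counts are uncertain.

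**Figure D5:**
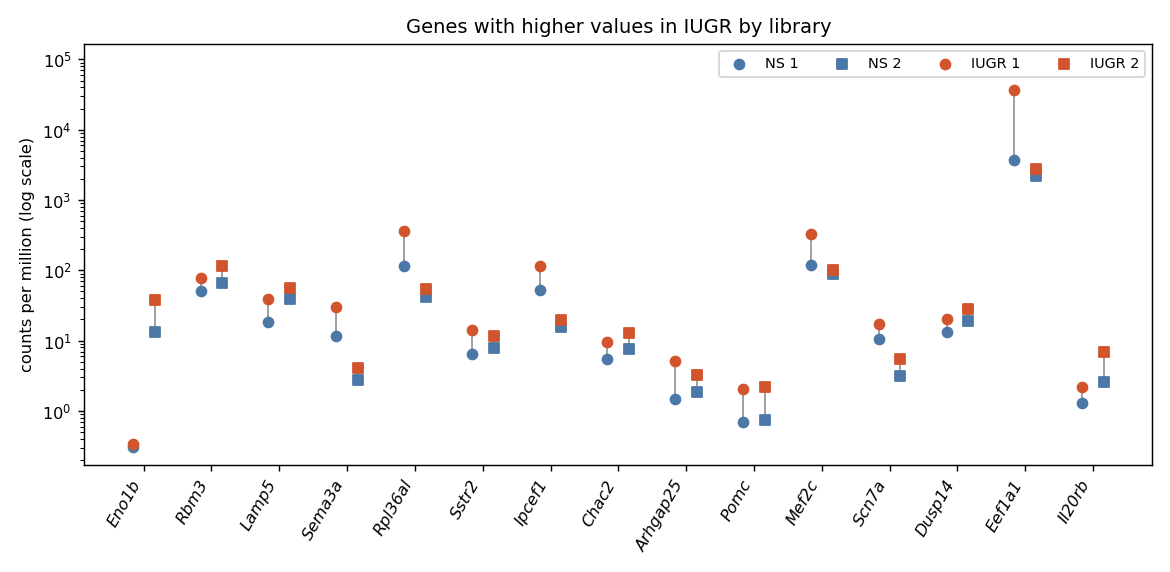
CPM on a log scale of the 15 genes with the smallest p among those higher in IUGR in both numbers, drawn as for the vascular genes (blue NS, red IUGR, circles number 1, squares number 2). The pairs of Rbm3 are about equally far apart in both numbers, whereas Eef1a1 stands out in IUGR 1 (36960 CPM) and Eno1b is nearly at 0 in number 1 (0.307 and 0.338).

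Among immune genes, the interferon response and antigen presentation list was mostly lower within both numbers, while the complement and microglial lists were nearer to all genes. Of 33 tested interferon response and antigen presentation genes, 26 were lower in both numbers (background 30.4%) and 2 by at least 1.5-fold in both, with medians of -0.61 and -0.23. Rsad2, the antiviral enzyme viperin, had 11.9 CPM in NS 1, 1.000 in NS 2, 0.676 in IUGR 1 and 0.343 in IUGR 2, high in NS 1 alone. Irf9, the DNA-binding subunit of the type I interferon response complex, had 9.82 CPM in NS 1, 12.4 in NS 2, 5.88 in IUGR 1 and 5.42 in IUGR 2 (-0.91 ± 0.27, adjusted p = 0.963 by edgeR), with the groups apart. C4b, a complement component of astrocytes and oligodendrocytes, had 78.1 CPM in NS 1, 47.97 in NS 2, 46.5 in IUGR 1 and 23.1 in IUGR 2 (-0.83 ± 0.20, adjusted p = 0.6), also apart. Of 21 tested complement genes, 5 were lower and 2 higher in both numbers, and of 26 microglial genes, 10 were lower and 3 higher (background 30.4% and 17.2%). The 3 C1q subunit genes, which microglia make, had absolute log2 fold changes of at most 0.13.

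Genes of the oligodendrocyte lineage were mostly lower, by small amounts. Of 30 myelin genes, 19 were lower and 0 higher in both numbers (background 30.4% and 17.2%; medians -0.28 and -0.08), and for 7 both IUGR libraries lay below both NS libraries (background 8.67%). The summed myelin level was 10299.5 CPM in NS 1, 7343.3 in NS 2, 6945.6 in IUGR 1 and 7400 in IUGR 2, so not lower in IUGR in number 2. Relative to genes of like GC content, the myelin medians were -0.27 in number 1 and -0.03 in number 2. Of 20 genes of oligodendrocyte precursors, 12 were lower and 1 higher in both numbers, with medians of -0.15 and -0.30. Hapln2, a link protein of the nodes of Ranvier, had 21.9 CPM in NS 1, 28.8 in NS 2, 13.2 in IUGR 1 and 16.9 in IUGR 2 (-0.69 ± 0.21), and Sox10, a transcription factor of the oligodendrocyte lineage, had 28.9 CPM in NS 1, 54.5 in NS 2, 20.4 in IUGR 1 and 26.9 in IUGR 2 (-0.71 ± 0.22). Slco1c1, a thyroid hormone transporter of astrocytes and endothelial cells, had 60.2 CPM in NS 1, 38.01 in NS 2, 30.4 in IUGR 1 and 23.6 in IUGR 2 (-0.77 ± 0.20), and Notch3, the Notch receptor of mural cells, had 11.9 CPM in NS 1, 12.7 in NS 2, 5.88 in IUGR 1 and 6.03 in IUGR 2 (-0.98 ± 0.26). Of 27 astrocyte genes, 8 were lower and 1 higher in both numbers (background 30.4% and 17.2%), so the lower count was near the share over all genes. Presynaptic genes had medians of 0.23 in number 1 and -0.24 in number 2, and postsynaptic scaffold genes 0.20 and -0.25. Fibcd1, a marker of CA1 neurons, had 59.7 CPM in NS 1, 271 in NS 2, 39.1 in IUGR 1 and 156 in IUGR 2, lower in IUGR within both numbers though numbers differed more. Cytosolic ribosomal protein genes lay on the other side: of 77, 42 were higher and 0 lower in both numbers (background 17.2%), with medians of 0.02 and 0.25. Rpl29 had 163 CPM in NS 1, 170.2 in NS 2, 204 in IUGR 1 and 254 in IUGR 2 (0.52 ± 0.19, adjusted p = 0.999 by edgeR). Ribosomal protein genes have many near-identical pseudogenes, so their counts are uncertain.

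The difference between the week 8 and the postnatal day 3 effect was tested as an interaction over all 8 libraries, whose effects share no library. No gene passed (0 of 15999, 0%), and 413 had an unadjusted p under 0.05 (2.58%). Of the 29 endothelial and mural genes, 27 had a log2 fold change below 0 at day 3 as well (background 48.3%), with a median of -0.44 against -0.81 at week 8 in the same fit. Their summed level at day 3 was 460 and 414.1 CPM in NS and 319.9 and 296.4 in IUGR. The meningeal markers moved with them at day 3: 30 of 30 had a log2 fold change below 0, with a median of -0.90, and they summed to 1966 and 1790.4 CPM in NS and 871.4 and 922.2 in IUGR. Their part in the day 3 values was not tested. Of the 29 endothelial and mural genes, 3 had an unadjusted p under 0.05 for the difference between ages, each further below NS at week 8. Tie1 was 1 of these, with -1.85 at week 8, -0.47 at day 3 and a difference of -1.37 ± 0.40 (SE, adjusted p = 1 by edgeR).

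Of the 10 genes with the smallest p for this difference, all but Ebf1 had a lower value in IUGR at day 3 that was less low, or higher, at week 8. Fgfbp1, a carrier of fibroblast growth factors, had a log2 fold change of -1.94 at day 3 and 0.86 at week 8 (difference 2.80 ± 0.43). Gjb6, connexin 30 of astrocytes, had -1.58 at day 3 and 0.14 at week 8 (1.72 ± 0.36). Lamp5 had -0.46 and 0.86 (1.32 ± 0.32). Ebf1, a transcription factor of pericytes and meningeal cells, went the other way, with 0.33 at day 3 and -1.51 at week 8 (-1.84 ± 0.39). The adjusted p of each was 1 by edgeR.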

How the data were processed

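Male hippocampal RNA was compared between the 2 IUGR and the 2 NS libraries of week 8, grouped by the treatment labels and numbered by the sample titles. The count tables (24421 genes at each age) hold whole, unnormalized read counts made by the authors and were analysed as deposited. Per the labels' protocols, ribosomal RNA was depleted and cDNA was made with random primers. Tools named in the submitters' processing notes are HISAT2 2.1.0, featureCounts 1.6.1, cutadapt 1.16, DESeq2 1.26.0 and SAMtools 1.9, with the build mm10, without saying whether counting used strand or how reads with several matches were handled, so overlapping and antisense genes and near-identical copies are uncertain. The authors' normalized tables were not used.

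Counts of the 4 week 8 libraries (totals from 13030277 to 18993050; intervals and floors cover counting error only) were fitted with edgeR 4.0.16 in R 4.3.3: TMM scaling, the default expression filter (15143 genes), replicate number as a block plus treatment, quasi-likelihood F test, Benjamini-Hochberg over all genes, adjusted p under 0.05. The SE is the log2 fold change over the square root of F. Differences within a number are of log2(CPM + 1) and were not tested. The numbers do not stand for a shared animal or litter in the labels; the block was used because the same genes differed between numbers in both groups (correlation 0.861). The 44 gene lists got no set test.

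Genes were named by rule: the 15 higher and 15 lower genes with the smallest p, a mean of at least 1 CPM and the same sign in both numbers, none of which passed, leaving out gene models, small RNAs and histones; up to 2 members of each list; Tet1, Tet2, Tet3, Nr3c1 and Nr3c2; and the 10 genes with the smallest p for the age difference. Some of these are not described, and 1 list member is not reported here. The other genes given (further members of the vascular, basement membrane, meningeal, choroid plexus, complement and glucocorticoid lists, and Prox1) were chosen after their values were seen. The members and lists were chosen with earlier results of these data known. Positions are from GENCODE M21, and promoters from RefSeq. The scripts were tested on simulated data. Alternatives used other scaling, filters, DESeq2 1.42.0, limma 3.58.1 voom, no block, all 8 libraries, and left-out libraries.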

Additional observations from a re-analysis of the deposited data

How the results depend on the processing

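The number of genes called at week 8 was 0 and depended on scaling and filter: edgeR called 24 with RLE scaling, 90 with upper-quartile scaling (7 higher, 83 lower), 120 with no count filter (12 higher, 108 lower) and 4 with a mean of at least 10 counts. The median prior degrees of freedom, which set how far a gene's spread is drawn to that of all genes, were 8.65 in the reported fit, 19.3 with RLE, 71.91 with upper quartile, 12.82 with the mean filter, 12.97 without small RNAs, histones and Eef1a1 (0 calls) and infinite with no count filter; the cause of the added calls was not tested further. DESeq2 with the replicate block called 3 genes (Fn1, Sned1 and Neat1), and DESeq2 with no replicate block called 1 (Ttr). Limma voom, all 8 libraries, a minimum log2 fold change of 1, leaving out small RNAs, histones and Eef1a1, and edgeR with no replicate block (0 calls, 29 genes at an unadjusted p under 0.05) called 0. Without the libraries of number 1, in the fit of 8, 1 gene was called (Rn45s, a ribosomal RNA precursor, higher). With 1 library left out and the block kept, its partner of the same number added nothing to the week 8 effect. Such a fit held only the difference within the other number. The endothelial and mural median was then -0.74 without NS 1 or IUGR 1 and -0.77 without NS 2 or IUGR 2. With a library left out and no block, a lone library was assumed to vary like the others. For the difference between ages, 0 genes were called and from 0 to 19 when each of the 8 libraries was left out; calls appeared without a day 3 library (6 to 19) or a number 1 library of week 8 (1), and with no replicate block there were 0.

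The endothelial and mural median stayed between -0.86 and -0.80 in the 11 alternatives that keep the 4 libraries, with 26 of 29 genes lower in each. The glucocorticoid target median was 0.54 without number 1 and -0.14 without number 2. These again describe the difference within the number that was kept. The direction turned under upper-quartile scaling for Tet1 (-0.019), without the number 2 libraries for Slc2a1 (-0.014), Fkbp5 (-0.18), Cdkn1a (-0.40), Tet1 (-0.019) and Tet3 (0.17), and without the number 1 libraries for Igf2 (0.068) and Ptgds (0.51). Over the alternatives, the lowest and highest log2 fold changes of some genes had opposite signs. They came mainly from leaving out 1 library, mostly without the block, where the difference between numbers enters. The lowest and highest were -1.98 and 0.20 in Eng, -2.06 and 2.51 in Mfsd2a, -0.46 and 0.61 in Slc2a1 and -1.74 and 0.17 in Col4a2. In Slc6a20a they were -2.46 and 0.17, in Col1a1 -2.48 and 1.13, in Igf2 -1.69 and 0.32 and in Ptgds -1.28 and 0.91. Sned1 had -3.38 and 0.16, Fibcd1 -2.05 and 0.77, Eno1b -4.26 and 5.96, Sema3a -0.77 and 2.67 and Rpl36al -0.44 and 2.40. Ipcef1 had -0.78 and 2.17, Scn7a -0.27 and 1.93, Eef1a1 -0.047 and 3.71 and Nfkbia -0.044 and 1.15. For Fkbp5 the values were -1.16 and 1.43, for Tsc22d3 -0.028 and 0.58, for Sgk1 -0.58 and 1.101 and for Cdkn1a -2.08 and 3.45. Nr3c1, at about 0 in the reported fit, had -0.96 and 0.88. Tet1 had -0.77 and 0.85, Tet2 -0.51 and 0.064, Tet3 -0.47 and 0.42, Wnt6 -2.56 and 0.32 and Notch2 -1.26 and 0.23. With 1 residual degree of freedom, small differences could not be resolved, and genes of a few CPM rest on few counts.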

Other observations

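Wnt pathway genes were mostly lower, by small amounts, at week 8. Of 40 tested, 23 were lower in both numbers and 4 higher in both (30.4% and 17.2% of all genes tested), and in 12 both IUGR libraries lay below both NS libraries, against 8.67% of all genes tested. The medians were -0.21 in number 1 and -0.14 in number 2. An unadjusted p under 0.05 by edgeR was reached by 2 of the 40, both lower, against 3.14% of all genes tested. Fzd5, a Wnt receptor, had 3.91 CPM in NS 1, 2.32 in NS 2, 1.89 in IUGR 1 and 0.754 in IUGR 2, and the ligand gene Wnt6 had 5.83 CPM in NS 1, 1.000 in NS 2, 1.83 in IUGR 1 and 0.548 in IUGR 2, with log2 fold changes of -1.23 ± 0.44 and -1.31 ± 0.47 (SE). The summed level of the list was nearly equal in the 4 libraries, from 1606.1 to 1620.8 CPM.

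Neural stem cell and radial glia genes were lower in both numbers in 13 of 28 and higher in 1, against 30.4% and 17.2% of all genes tested, with medians of -0.14 and -0.23. Notch2, a receptor that keeps stem cells quiescent, had 122 CPM in NS 1, 43.9 in NS 2, 64.9 in IUGR 1 and 33.6 in IUGR 2 (-0.59 ± 0.20), and Gas1, a growth arrest gene, had 18.3 CPM in NS 1, 14.7 in NS 2, 9.33 in IUGR 1 and 10.6 in IUGR 2 (-0.66 ± 0.24). Interneuron genes were lower in both numbers in 15 of 30 (30.4% of all genes tested), with a median of 0.03 in number 1 and -0.35 in number 2. Among them, Kit, a receptor tyrosine kinase of some interneurons, had 87.3 CPM in NS 1, 114 in NS 2, 52.8 in IUGR 1 and 80.01 in IUGR 2 (-0.55 ± 0.18). GABA-A receptor subunit and chloride transporter genes were higher in both numbers in 6 of 17 and lower in 2 (17.2% and 30.4% of all genes tested), with medians of -0.03 in number 1 and 0.24 in number 2. Relative to genes of like GC content these medians were 0.07 and 0.04. Gabra4 had 95.9 CPM in NS 1, 96.4 in NS 2, 117 in IUGR 1 and 127 in IUGR 2 and Gabrd, the extrasynaptic delta subunit, 15.9 CPM in NS 1, 21.4 in NS 2, 22.2 in IUGR 1 and 25.8 in IUGR 2, with both IUGR libraries above both NS libraries in each. Igfbp7, an insulin-like growth factor binding protein of vessels, had 7.67 CPM in NS 1, 12.7 in NS 2, 3.04 in IUGR 1 and 9.60 in IUGR 2 (-0.76 ± 0.30). None of these genes passed the adjusted threshold.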
